A study of Saccharomyces cerevisiae with 4 samples.

Results

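What sets the response of budding yeast to celastrol apart from its response to heat was measured gene by gene, as the mean log2 ratio after celastrol minus the mean log2 ratio after heat shock. The members are all genes for which this difference could be tested, 5403 of the 5477 genes that have a probe of their own on the array. The other 74 held an exact 0, taken as not measured, on at least 1 array. Total RNA of Saccharomyces cerevisiae was hybridised to 4 arrays with 2 colours. On the 2 heat shock arrays, cells held at 39 °C for 30 min were set against cells held at 30 °C for the same time. On the 2 celastrol arrays, cells given 10 µM celastrol for 1 h were set against cells given only the solvent DMSO. A value is 1 array's log2 ratio, treated RNA over control RNA, so that 1 unit is a doubling and a difference of 0 means that both treatments moved a gene equally. The log base could be read from the values of heat shock replicate 1 and is assumed for the other 3 arrays. The treatments differ in duration as well as in kind, and each has its own control. The sources used here name no strain, genotype, medium or growth phase. The series text calls the experiments independent, but no source used here says whether the 2 arrays of a treatment came from separate cultures. The p-values therefore measure only the spread between arrays. With 2 arrays a treatment, the number of arrays limits the precision.

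Yeast answers heat mainly through Hsf1, the activator of chaperone genes, and through Msn2 and Msn4, which switch on a broad set of stress genes by way of falling protein kinase A activity. Oxidants and reactive electrophiles act instead on Yap1, whose targets include thioredoxin and glutathione genes and many reductases, and foreign compounds engage Pdr1 and Pdr3, which drive drug pumps. Celastrol is a triterpenoid quinone methide from the thunder god vine that can react with protein thiols, and it is known for inducing the heat shock response.

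The arrays differed in spread. The SD over the tested genes was 0.913 and 0.590 log2 units for heat shock and 0.588 and 0.789 for celastrol. Replicates correlated across genes with r = 0.660 for heat shock and 0.853 for celastrol. All 4 arrays had the treated RNA in Cy5, so a dye effect of a probe cancels in the difference only where it is equal on all arrays, which was not tested. In the test of a treatment against its own control such an effect does not cancel. The median difference over all genes was −0.09 log2 units, and centring each array on its median would move every difference up by 0.111.

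The difference between the treatments was called for 60 genes, 1.11% of those tested, at an adjusted p under 0.05 in limma with Benjamini-Hochberg adjustment over all 5403 genes. Of these, 29 (0.537%) were higher after celastrol and 31 (0.574%) were lower. Before adjustment, 741 genes had a p under 0.05. Called differences ran from 1.65 to 5.76 log2 units upward and from −1.66 to −4.68 downward. For each of the 60 genes the celastrol arrays lay wholly above or wholly below the heat shock arrays. Genes called for a large difference on these same arrays are apt to separate in this way, so it is a description. Over all tested genes, both celastrol arrays lay above both heat shock arrays for 978 genes (18.1%) and below them for 1560 (28.9%). Leaving out heat shock replicate 1 gave 175 calls and leaving out heat shock replicate 2 gave 575. Leaving out celastrol replicate 1 or celastrol replicate 2 gave 0 by limma, with 378 and 343 genes at an unadjusted p under 0.05, since the spread then rests on the heat shock pair alone. With quantile normalization 164 genes were called, 87 higher and 77 lower, and the 60 were all among them. Scaling arrays to equal median absolute deviation gave 122 calls, which held 52 of the 60.

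**Figure D1:**
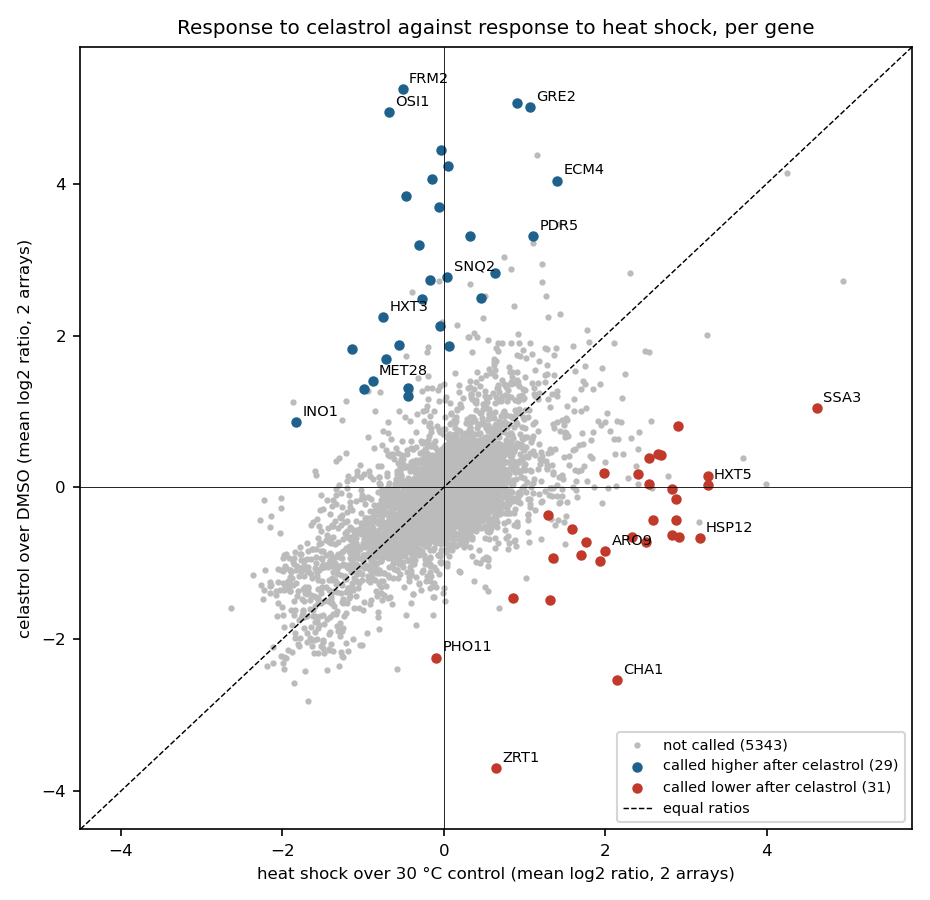
Mean log2 ratio after heat shock (x axis) against that after celastrol (y axis), 1 point a gene, each a mean of 2 arrays. The 29 genes called higher after celastrol stand above the dashed line of equal ratios, most of them near 0 or below on the heat shock axis, and the 31 called lower stand beneath it, most of them above 1 on the heat shock axis.

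The 2 sets of called genes differed in which treatment had moved them. In the higher set the median ratio was 2.77 after celastrol and −0.17 after heat shock, and 28 of the 29 rose after celastrol by the test of that treatment against its own control (3.85% of all genes did). Of the 29, 3 also rose after heat shock, ECM4, PDR5 and YNL134C, and 4 fell (background 4.28% and 4.79%). In the lower set the median ratio was 2.50 after heat shock and −0.55 after celastrol, and 28 of the 31 rose after heat shock. The other 3, ZRT1, PHO11 and CWP1, were not called after heat shock and fell after celastrol, as did 4 that rose after heat shock (2.68% of all genes fell after celastrol). These counts come from the arrays that also made the difference and are a description of the called genes.

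Reductases that act on aldehydes, quinones and other electrophiles headed the genes that were higher after celastrol. FRM2 (YCL026C-A), whose product resembles bacterial nitroreductases, had log2 ratios of −0.88 and −0.13 with heat and 5.17 and 5.32 with celastrol. The difference was 5.76 ± 0.32 (limma SE), or 54-fold, the highest of all, with a limma adjusted p of 0.0107. OSI1 (YKL071W), a gene named for its induction by oxidative stress, followed at −0.88 and −0.48 after heat and 4.62 and 5.25 after celastrol, a difference of 5.62 ± 0.31. For both genes the heat shock arrays lay below 0, and the groups were more than 5 units apart.

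GRE2 (YOL151W), for a reductase of methylglyoxal and other aldehydes, differed from these in that both heat shock arrays lay above 0. Its ratios were 1.14 and 0.996 after heat shock against 5.68 and 4.34 after celastrol, a difference of 3.94 ± 0.47 (limma adjusted p = 0.0391). GRE2 was not called after heat shock against its own control (limma adjusted p = 0.11). OYE3 (YPL171C), an old yellow enzyme gene whose product oxidises NADPH, was near 0 after heat at −0.47 and 0.17 and reached 3.54 and 4.58 after celastrol (4.21 ± 0.43). YNL134C encodes an aldehyde reductase that uses NADH and had ratios of 0.98 and 0.83 after heat and 5.11 and 5.004 after celastrol (4.15 ± 0.22). YML131W, of the medium-chain dehydrogenase family, was at −0.035 and −0.042 after heat shock against 4.42 and 4.46 after celastrol. Its difference was 4.48 ± 0.21, so the drug arrays stood 22.3-fold above the heat arrays.

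The putative aryl-alcohol dehydrogenases of the AAD family resemble each other in sequence, so their probes can share signal, and AAD6 is listed as a pseudogene in RefSeq. AAD6 (YFL056C) read −0.26 and 0.14 after heat and 3.63 and 3.74 after celastrol, a difference of 3.75 ± 0.24. AAD15 (YOL165C) differed by 3.50 ± 0.24 and AAD3 (YCR107W) by 2.75 ± 0.25, with heat shock ratios of −0.49 and −0.12 for AAD15 and −0.39 and −0.15 for AAD3. All 3 were close to their controls after heat and far above them after the drug. YLR460C, outside the reductase list but related to quinone oxidoreductases, moved in opposite directions, at −1.19 and −1.07 after heat and 1.75 and 1.88 after celastrol (2.95 ± 0.22).

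Of the 20 electrophile-responsive reductases tested, 9 were called higher and 0 lower, where 0.537% and 0.574% of all genes were. Both celastrol arrays lay above both heat shock arrays for 16 (80%), beside 18.1% of all genes. The median difference of this list was 2.09, beside −0.09 over all genes. Its array medians were 0.12 and 0.17 for heat shock and 2.13 and 2.55 for celastrol. The member at the other end was GRE3, an aldose reductase gene of the general stress response, at 2.85 and 1.96 after heat shock against 0.62 and 0.38 after celastrol (difference −1.91 ± 0.35, limma adjusted p = 0.0976). The lists were written by hand with earlier results of these data known, so their counts describe and do not test. Called counts of the later lists stand beside the same shares of all genes.

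**Figure D2:**
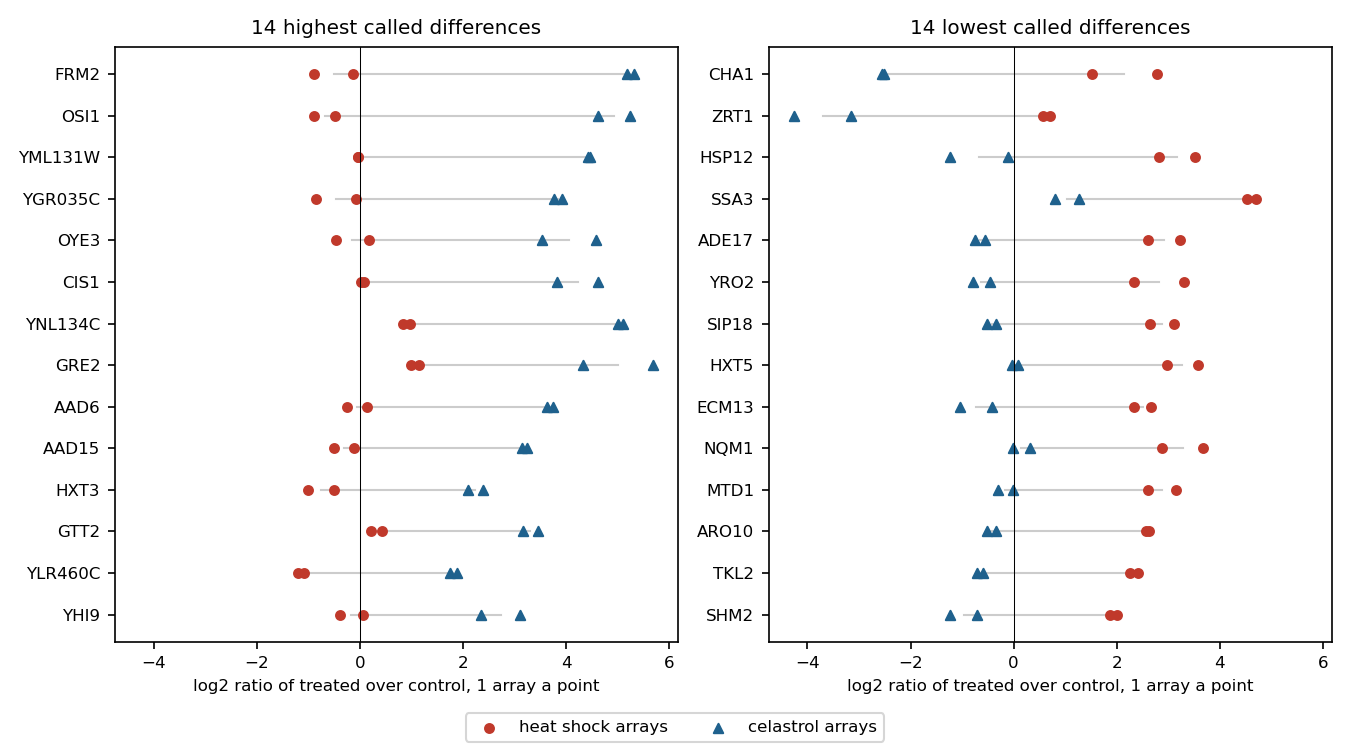
Log2 ratio (treated over control) on each of the 4 arrays (x axis) for the 14 highest and 14 lowest called genes (y axis), with heat shock arrays as circles, celastrol arrays as triangles and a line joining the 2 means. In the left panel the circles lie between −1.19 (YLR460C) and 1.14 (GRE2) with all triangles to their right, and in the right panel the circles lie between 0.58 (ZRT1) and 4.71 (SSA3) with all triangles to their left.

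Drug efflux genes formed the next group. SNQ2 (YDR011W), for a pump of the ABC family, stayed near its control after heat at 0.08 and 0.0081 and stood at 2.75 and 2.79 after celastrol, a difference of 2.73 ± 0.21 or 6.62-fold (limma adjusted p = 0.0157). YOR1 (YGR281W), another ABC pump, differed by 2.19 ± 0.22, with 0.74 and 0.53 after heat and 2.81 and 2.84 after celastrol. PDR5 (YOR153W), the best-known target of Pdr1 and Pdr3, was above its control on all 4 arrays, at 1.42 and 0.80 after heat and 3.38 and 3.24 after celastrol. The difference for PDR5 was 2.20 ± 0.29, with a limma adjusted p of 0.0492.

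Further members of the Pdr1/Pdr3 group encode proteins other than ABC pumps. CIS1 (YLR346C), a gene named for sensitivity to citrinin, was at 0.019 and 0.091 after heat and 3.83 and 4.63 after celastrol, 18.1-fold apart. TPO1 (YLL028W), for a polyamine exporter, differed by 2.04 ± 0.22, ICT1 (YLR099C), for a lysophosphatidic acid acyltransferase, by 2.17 ± 0.25, and PDR16 (YNL231C), for a phosphatidylinositol transfer protein, by 1.80 ± 0.23. Of 24 genes on the list, 7 were called higher and 0 lower. In the upward direction, 21 (87.5%) had arrays that did not overlap, beside 18.1% of all genes. The median difference was 1.52. The list's array medians were 0.16 and 0.21 after heat and 0.95 and 1.45 after celastrol. In this list 2 large differences were not called. The multidrug transporter gene FLR1, a Yap1 target, was at −0.12 and 0.0038 after heat and 2.20 and 3.25 after celastrol (2.78 ± 0.39, limma adjusted p = 0.0535), and the lipid transporter gene RSB1 at −0.49 and −0.29 and 1.78 and 3.38 (2.97 ± 0.54, limma adjusted p = 0.0957).

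Thioredoxin and glutathione genes had differences of both signs. Within the glutathione list, the transferase genes GTT2 (YLL060C) and ECM4 (YKR076W) were called higher after celastrol, GTT2 at 0.22 and 0.43 after heat and 3.17 and 3.45 after celastrol (2.98 ± 0.24). ECM4 was above its control in both treatments, 1.59 and 1.23 after heat and 3.89 and 4.19 after celastrol (2.63 ± 0.26). GSH1, whose product starts glutathione synthesis, stood at 0.056 and −0.45 after heat and 1.44 and 1.48 after the drug, and its difference of 1.66 ± 0.26 was not called (limma adjusted p = 0.0679). Of the 13 members tested, 2 were called higher and 0 lower, and the median difference was 0.49. With 1 array left out, that median ran from 0.088 without heat shock replicate 1 to 0.90 without heat shock replicate 2. The dithiol glutaredoxin gene GRX1 lay the other way, at 1.40 and 1.45 after heat shock against 0.13 and 0.14 after celastrol (limma adjusted p = 0.0726).

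Of the 19 thioredoxin, peroxiredoxin and superoxide genes, 1 was called lower and 0 higher. TSA2 (YDR453C), the inducible cytosolic peroxiredoxin gene, rose after heat shock to 2.16 and 2.66 and was at 0.10 and 0.25 after celastrol, a difference of −2.23 ± 0.26 (limma adjusted p = 0.0391). The cytosolic thioredoxin genes had the opposite sign. TRX2 had ratios of −0.23 and 0.87 after heat and 2.79 and 2.57 after celastrol (2.36 ± 0.41, limma adjusted p = 0.0842), and TRX1 had −1.47 and −1.12 after heat and 0.46 and 0.30 after celastrol (1.68 ± 0.24, limma adjusted p = 0.054). The methionine sulfoxide reductase gene MXR1 (1.52) and, downward, the glutathione peroxidase gene GPX1 (−1.20) and the sulfiredoxin gene SRX1 (−1.22) had non-overlapping arrays but were not called. In all, 8 members (42.1%) had non-overlapping arrays upward and 6 (31.6%) downward, beside 18.1% and 28.9% of all genes. The downward share is near that of all genes. The list median was 0.27, and it ran from 0.046 without heat shock replicate 1 to 0.43 without heat shock replicate 2. YAP1 itself, the gene of the regulator, was at 0.52 and 0.51 after heat and 1.01 and 1.36 after celastrol, with a difference of 0.67 (95% interval 0.066 to 1.27) that was not called.

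**Figure D3:**
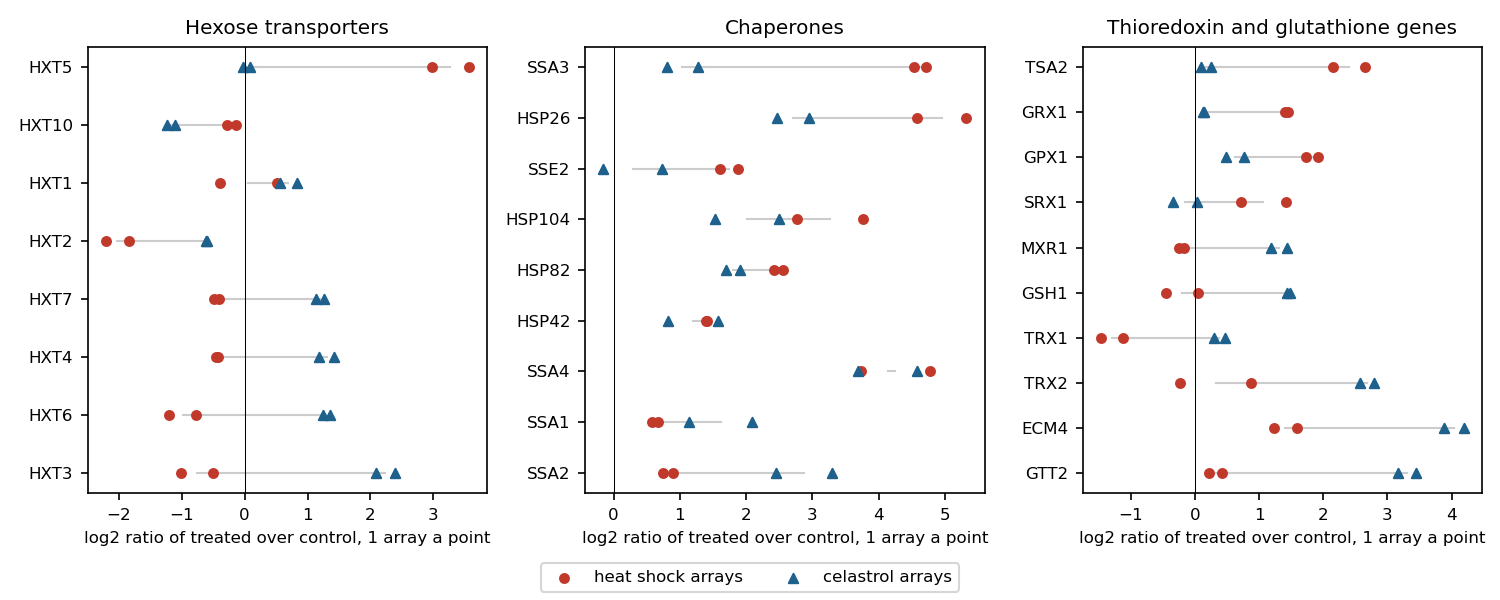
Log2 ratio on each of the 4 arrays (x axis) for hexose transporter, chaperone, and thioredoxin and glutathione genes (y axis), picked from their lists after their values were seen, with heat shock arrays as circles, celastrol arrays as triangles and a line joining the 2 means. Each panel holds genes with triangles to the left of the circles (HXT5, SSA3, TSA2) and genes with triangles to the right of them (HXT3, SSA2, GTT2), while SSA4 and HSP42 overlap.

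Chaperone genes separated by member. SSA3 (YBL075C), for a stress-inducible cytosolic Hsp70, was at 4.53 and 4.71 after heat shock against 0.81 and 1.27 after celastrol, 11.9-fold higher after heat (difference −3.58 ± 0.26, limma adjusted p = 0.0157). It was the called gene of the Hsf1 list, 1 of 27 lower and 0 higher. SSA4, the other inducible cytosolic Hsp70 gene, had overlapping arrays, at 3.73 and 4.77 after heat and 3.69 and 4.59 after celastrol. Its difference of −0.11 had a 95% interval of −1.33 to 1.10, so a difference of more than 1 unit either way lies within it. The Hsp70 gene SSA2 had the opposite order, 0.75 and 0.90 after heat and 3.30 and 2.45 after celastrol (2.05 ± 0.34, limma adjusted p = 0.0765). Cytosolic Hsp70 genes are similar in sequence, so the probes of SSA1 and SSA2 can share signal.

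Other chaperones mostly had the lower ratio after celastrol without being called. The small heat shock protein gene HSP26 was at 4.58 and 5.32 after heat and 2.47 and 2.95 after celastrol, a difference of −2.24 ± 0.35 (limma adjusted p = 0.0655). The disaggregase gene HSP104 differed by −1.25 ± 0.48 and the Hsp90 gene HSP82 by −0.69 ± 0.22, with limma adjusted p-values of 0.355 and 0.286. The small heat shock protein gene HSP42 had a difference of −0.20 (95% interval −1.01 to 0.61). Of the 27 genes, 14 (51.9%) had both celastrol arrays below both heat shock arrays and 5 (18.5%) had them above. Of all genes, 28.9% lay below and 18.1% above, so the upward share is near that of all genes. The median difference was −0.55, and it ran from −0.80 without celastrol replicate 2 to −0.18 without celastrol replicate 1. The medians by array were 1.39 and 1.41 after heat and 0.61 and 1.25 after celastrol, so both treatments lay above their controls.

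General stress genes under Msn2 and Msn4 held 6 of the 31 genes called lower after celastrol. HSP12 (YFL014W), for a small membrane-associated protein and a classic target of these factors, was at 3.51 and 2.83 after heat shock against −1.23 and −0.11 after celastrol. The difference of −3.84 ± 0.46 made it 14.3-fold higher after heat (limma adjusted p = 0.0391), and the drug arrays lay below 0. SIP18 (YMR175W), for a phospholipid-binding hydrophilin, was at 2.65 and 3.11 and −0.51 and −0.34 in the same order, a difference of −3.31 ± 0.26. The reticulon gene RTN2 (YDL204W) differed by −1.80 ± 0.21, and ALD2 (YMR170C), for a cytoplasmic aldehyde dehydrogenase, by −2.10 ± 0.27. Its neighbour ALD3 had a larger difference, −3.32 ± 0.46, but a wider spread, with 4.36 and 3.05 after heat and 0.32 and 0.46 after celastrol (limma adjusted p = 0.0535).

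Of 35 general stress genes tested, 6 were called lower after celastrol, HXT5 and NQM1 among them, and 1 higher. The arrays did not overlap in the downward direction for 24 genes (68.6%), beside 28.9% of all genes. The list's median difference was −1.14, with array medians of 1.55 and 1.86 after heat and 0.38 and 0.61 after celastrol. The member called higher was MPC3 (YGR243W), for a subunit of the mitochondrial pyruvate carrier, at −0.83 and −0.28 after heat shock against 1.74 and 2.01 after celastrol (2.43 ± 0.28). YGP1, for a secreted glycoprotein, also had the higher ratio after celastrol, 4.20 and 4.55, but its heat shock arrays disagreed at −0.094 and 2.40, and the difference of 3.23 ± 0.81 was not called (limma adjusted p = 0.194). Catalase T, encoded by CTT1, differed by −0.98 ± 0.28 and was not called either. YRO2 (YBR054W), for a plasma membrane protein of the Hsp30 family and outside the list, was at 3.31 and 2.33 after heat and −0.46 and −0.80 after celastrol (−3.45 ± 0.39). Its relative HSP30 had a difference of −3.62 ± 0.62 (limma adjusted p = 0.0801).

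The pentose phosphate isoenzyme genes TKL2 and NQM1 were called lower after celastrol, and an acetaldehyde dehydrogenase gene was called higher. The pentose phosphate pathway had no list of its own, so its other members were not surveyed. The minor transketolase gene TKL2 (YBR117C) was at 2.41 and 2.25 after heat shock against −0.72 and −0.60 after celastrol (−2.98 ± 0.22, limma adjusted p = 0.0157). The transaldolase gene NQM1 (YGR043C) was at 3.67 and 2.88 after heat and −0.011 and 0.31 after celastrol (−3.13 ± 0.34). The minor 6-phosphogluconate dehydrogenase gene GND2 had the largest difference that was not called, −3.96 ± 0.57, with 4.78 and 3.21 after heat and 0.35 and −0.27 after the drug (limma adjusted p = 0.054). Its major partner GND1 had 0.62 and 0.099 and 0.93 and 0.92, a difference of 0.57 (95% interval −0.11 to 1.24). ALD6 (YPL061W), the main cytosolic acetaldehyde dehydrogenase gene and dependent on NADP, was at −0.90 and −0.53 after heat and 1.59 and 1.78 after celastrol, so it differed by 2.40 ± 0.25 where ALD2 and ALD3 had the opposite sign. GND1 and the remarks on isoenzyme pairs were chosen after the values were seen.

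Hexose transporter genes gave called differences in both directions. HXT5 (YHR096C), a transporter gene of slow growth and stress, was at 3.57 and 2.98 after heat shock against 0.079 and −0.025 after celastrol, a difference of −3.24 ± 0.28 (9.48-fold higher after heat, limma adjusted p = 0.0209). HXT3 (YDR345C), for a low-affinity transporter, had the reverse order, −0.50 and −1.005 after heat and 2.39 and 2.09 after celastrol (2.99 ± 0.28, limma adjusted p = 0.023). HXT4 (YHR092C), HXT6 (YDR343C) and HXT7 (YDR342C), for transporters of higher affinity, differed by 1.75 ± 0.22, 2.28 ± 0.25 and 1.65 ± 0.21. HXT6 and HXT7 are neighbours and nearly identical in sequence, so their probes do not count as independent. HXT2 lay below its control on all arrays, further after heat (−2.21 and −1.84) than after celastrol (−0.61 and −0.59), and was not called (limma adjusted p = 0.078). Of 17 tested genes, 4 were called higher and 1 lower, with a median difference of −0.12. The sign of that median depended on the arrays, since it ran from −0.31 without heat shock replicate 1 to 0.20 without heat shock replicate 2 and was also above 0, at 0.037, without celastrol replicate 2.

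Purine and one-carbon genes were among the called genes that were lower after celastrol. ADE17 (YMR120C), for the enzyme of the last steps of inosine monophosphate synthesis, was at 3.23 and 2.60 after heat shock against −0.55 and −0.75 after celastrol. Its difference was −3.57 ± 0.29, or 11.9-fold higher after heat (limma adjusted p = 0.018). MTD1 (YKR080W), for a methylenetetrahydrofolate dehydrogenase, was at 3.16 and 2.61 after heat and −0.019 and −0.30 after celastrol (−3.04 ± 0.28), and SHM2 (YLR058C), for the cytosolic serine hydroxymethyltransferase, at 1.86 and 2.01 and −0.70 and −1.24 (−2.91 ± 0.27). GCV1 (YDR019C), for the T subunit of the glycine cleavage complex, which also feeds the folate pool, differed by −2.84 ± 0.34. FCY2 (YER056C), for the purine and cytosine permease, was at 1.85 and 1.54 after heat and −0.74 and −1.03 after celastrol (−2.58 ± 0.25). The gene of another subunit, GCV2 (−1.71, limma adjusted p = 0.0953), and ADE2 (−2.11, limma adjusted p = 0.104) had the same sign and were not called. Of 13 purine and one-carbon genes, 3 were called lower and 0 higher. The median was −0.57, or −1.23 without celastrol replicate 1 to −0.45 without celastrol replicate 2. Downward, 8 members (61.5%) had non-overlapping arrays, beside 28.9% of all genes.

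Amino acid breakdown and arginine synthesis added further called genes on the heat side. CHA1 (YCL064C), for the catabolic serine and threonine deaminase, had the most negative difference of all, −4.68 ± 0.44, or 25.7-fold higher after heat (limma adjusted p = 0.023). It rose after heat shock, to 2.77 and 1.52, and fell after celastrol, to −2.55 and −2.52. ARO9 (YHR137W), for an aromatic aminotransferase, and ARO10 (YDR380W), for the decarboxylase that follows it in the breakdown of aromatic amino acids, were called together. ARO9 was at 1.95 and 2.05 after heat and −0.91 and −0.76 after celastrol (−2.83 ± 0.22), and ARO10 at 2.62 and 2.57 and −0.34 and −0.52 (−3.03 ± 0.22). ARG3 (YJL088W), for ornithine carbamoyltransferase, was at 2.55 and 2.54 after heat and 0.12 and −0.017 after celastrol (−2.50 ± 0.21), and CPA1 (YOR303W), for the small subunit of carbamoyl phosphate synthetase, differed by −2.21 ± 0.27. Of 9 arginine genes tested, 2 were called lower and 0 higher, with a median of −0.58. That median ran from −1.09 without heat shock replicate 2 to −0.15 without heat shock replicate 1, and was −0.26 with arrays scaled to equal spread. Of 48 other amino acid genes, 2 were called lower, CHA1 and GCV1, and 0 higher. Their median was 0.19 and ran from 0.021 without heat shock replicate 2 to 0.40 without heat shock replicate 1. Non-overlapping arrays upward were held by 20 (41.7%), beside 18.1% of all genes. Downward there were 13 (27.1%), near the 28.9% of all genes.

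Sulfur amino acid genes held 1 called member, on the celastrol side. MET28 (YIR017C), for a basic leucine zipper activator of the sulfur network, fell after heat shock, to −0.95 and −0.81, and rose after celastrol, to 1.28 and 1.51, a difference of 2.28 ± 0.23 (limma adjusted p = 0.0237). The list had 29 tested genes, of which 0 were called lower. Upward, 16 members (55.2%) had non-overlapping arrays, beside 18.1% of all genes. The S-adenosylmethionine synthetase gene SAM1 (2.05), the cystathionine gamma-lyase gene CYS3 (1.57) and MET3, for ATP sulfurylase (1.53), came next and were not called, at limma adjusted p-values of 0.0665, 0.057 and 0.054. For SAM1 the difference comes from heat shock arrays at −2.03 and −2.41, with celastrol arrays at 0.17 and −0.51. The list's medians by array were −0.30 and −0.23 after heat and −0.0081 and −0.059 after celastrol.

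Zinc and phosphate genes held called members with the lower ratio after celastrol. ZRT1 (YGL255W), whose product takes up zinc with high affinity, was at 0.71 and 0.58 after heat shock against −3.15 and −4.25 after celastrol, a difference of −4.35 ± 0.41 or 20.3-fold (limma adjusted p = 0.023). The low-affinity transporter gene ZRT2 had 0.58 and 0.78 after heat and −1.03 and −2.16 after celastrol (−2.27 ± 0.41, limma adjusted p = 0.0953), and ZAP1, for the zinc-responsive activator of these genes, differed by −0.72. On the list of 19 zinc and copper genes, 14 (73.7%) had non-overlapping arrays downward and 2 (10.5%) upward, beside 28.9% and 18.1% of all genes. INO1 (YJL153C), for inositol phosphate synthase, stood on that list too and was called in the other direction, at −1.66 and −2.000 after heat and 0.77 and 0.94 after celastrol (2.69 ± 0.24). INO1 fell after heat shock and was not called after celastrol.

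The acid phosphatase gene PHO11 (YAR071W) lay near its control after heat (−0.083 and −0.11) and fell after celastrol (−2.35 and −2.13), a difference of −2.15 ± 0.22. Its probe can share signal with the near-identical PHO12, which differed by −1.47. PHM7 (YOL084W), a phosphate-regulated gene, was at 1.23 and 1.36 after heat and −0.34 and −0.40 after celastrol (−1.66 ± 0.21). CTF19 (YPL018W), a kinetochore gene that neighbours the polyphosphate synthesis gene VTC3 and was counted on the phosphate list as written, differed by −2.14 ± 0.26, and VTC3 by −1.45. Of 20 phosphate genes, 3 were called lower and 0 higher. Non-overlapping arrays downward were held by 16 (80%), beside 28.9% of all genes. The median difference was −1.02, or −1.36 without heat shock replicate 1 to −0.64 without heat shock replicate 2. The array medians were −0.044 and 0.062 after heat and −0.52 and −0.79 after celastrol.

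Cell surface and signalling genes completed the called set. The cell wall mannoprotein gene CWP1 (YKL096W) was at 1.16 and 0.55 after heat and −1.35 and −1.56 after celastrol (−2.31 ± 0.29), and PST1 (YDR055W), for a wall protein of the integrity response, at 2.52 and 2.56 and 0.29 and 0.49 (−2.15 ± 0.22). They were the called members among 36 cell wall genes, whose median was −0.34, or −0.47 to −0.21 with 1 array left out. RGS2 (YOR107W), for a regulator of the glucose-sensing G protein Gpa2, rose after heat shock to 1.51 and 1.20 and fell after celastrol to −0.90 and −0.96 (−2.29 ± 0.23). GPG1 (YGL121C), for a protein that binds Gpa2, was at 2.60 and 2.78 after heat and 0.35 and 0.51 after celastrol (−2.26 ± 0.22). TDA6 (YPR157W) also changed sign between treatments, at 1.19 and 1.45 and −1.06 and −1.91 (−2.80 ± 0.35), and its chromosomal neighbour TPO3, a polyamine exporter gene, differed by −2.25 ± 0.32 (limma adjusted p = 0.054). Genes with little known function were called on both sides. ECM13 (YBL043W) and YPR078C differed by −3.23 ± 0.30 and −2.48 ± 0.24, and YGR035C and YHI9 (YHR029C) by 4.31 ± 0.32 and 2.90 ± 0.35.

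The 4 arrays gave the treatments opposite signs for 15 of the 29 genes called higher and for 19 of the 31 called lower. Of all tested genes, 664 (12.3%) had opposite signs. Genes called for a large difference on these same arrays are more apt to have them, so these counts are a description. By the tests of each treatment against its own control, 7 genes passed in opposite directions. CHA1, ARO9, TDA6 and RGS2 rose after heat and fell after celastrol, and YLR460C, HXT6 and MET28 fell after heat and rose after celastrol. SSA3 was the called gene on the heat side that rose in both treatments.

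Large gene groups of protein turnover and ribosome formation held 0 called members, yet many of their arrays did not overlap. Of 32 proteasome genes, 22 had both celastrol arrays above both heat shock arrays and 0 below, beside 18.1% and 28.9% of all genes. By limma, 11 of them had an unadjusted p under 0.05. Their array medians were 1.01 and 0.64 after heat and 1.30 and 1.47 after celastrol, with a median difference of 0.54. PRE2, for a catalytic core subunit, was at 0.33 and 0.50 after heat and 1.51 and 1.53 after celastrol (1.10), and ECM29, for a proteasome-associated protein, at 1.23 and 1.30 and 2.27 and 2.78 (1.26). Among 22 ubiquitin and Cdc48 genes, 10 had non-overlapping arrays upward, with a median of 0.43 (0.21 to 0.72 with 1 array left out), and CDC48 itself, for the unfolding ATPase, differed by 1.43. The polyubiquitin gene UBI4 had the largest difference of that list, 1.72, but its heat shock arrays were at 0.26 and 2.17. The highest single difference among proteasome genes was 1.26, below the smallest difference that was called.

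**Figure D4:**
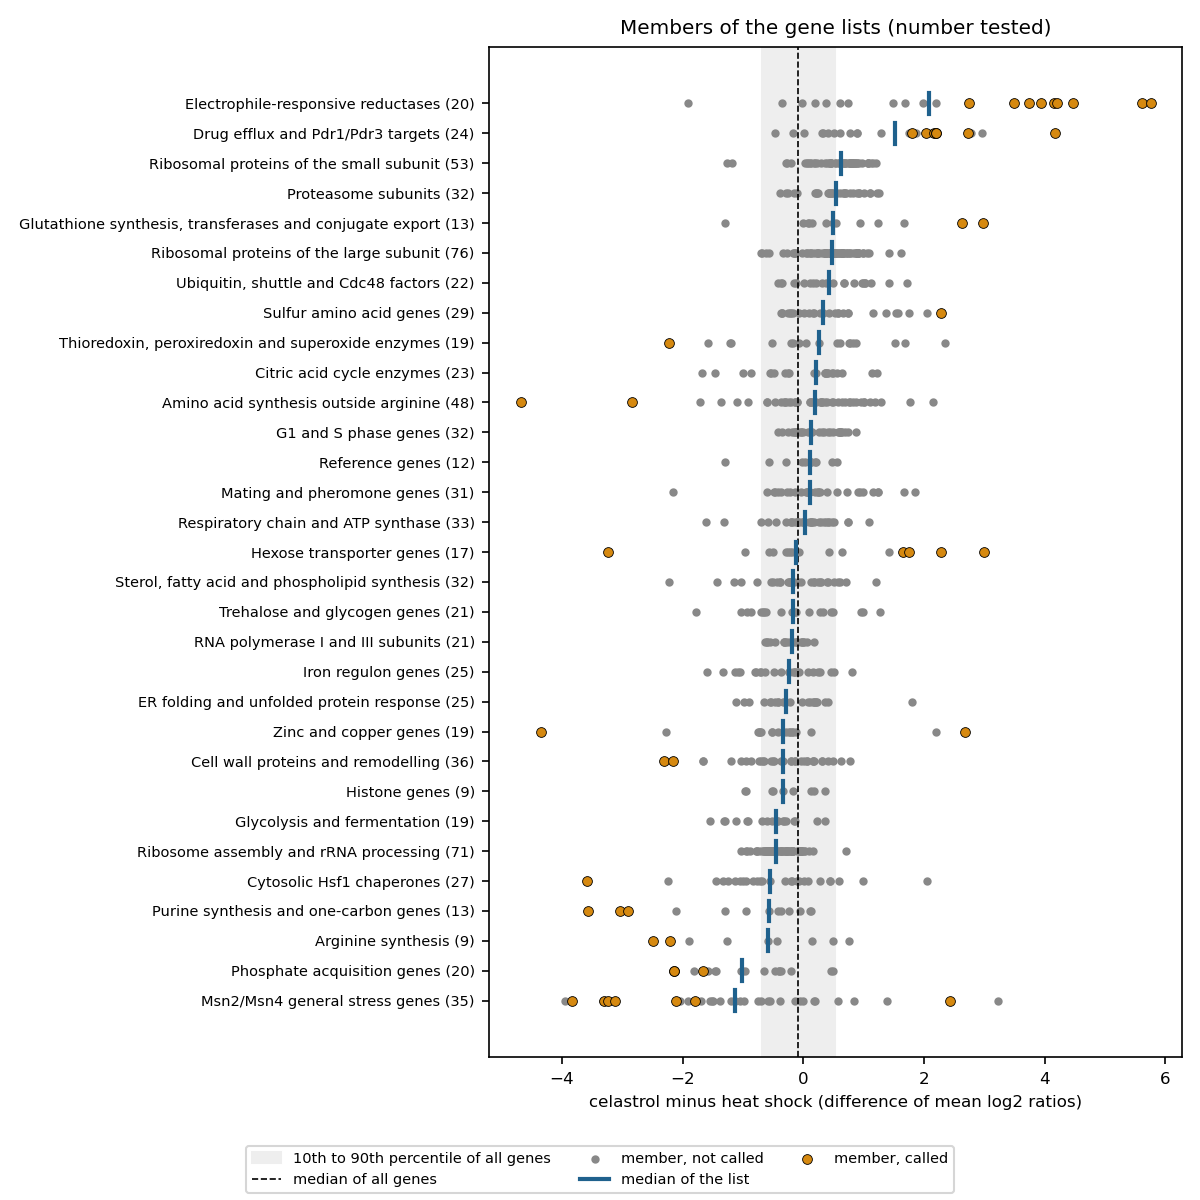
Difference between celastrol and heat shock in mean log2 ratio (x axis) for each tested member of the 31 gene lists (y axis, number tested in brackets), with called members in orange, the list median as a bar, the median of all genes as a dashed line and the 10th to 90th percentile of all genes, −0.68 to 0.52, shaded. Reductases and drug efflux genes have medians right of the shaded band, as do small-subunit ribosomal proteins (0.62) and proteasome subunits (0.54). General stress and phosphate genes have medians left of it. The hexose transporter, general stress, and zinc and copper lists hold called members on both sides. On the zinc and copper list the member called higher is INO1, for inositol phosphate synthase.

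Ribosome assembly and ribosomal protein genes lay on opposite sides of the all-gene median. Of 71 assembly and rRNA processing genes, 46 (64.8%) had both celastrol arrays below both heat shock arrays and 0 above. Of all genes, 28.9% lay below and 18.1% above. The median difference of the list was −0.46. An unadjusted limma p under 0.05 was held by 7. Their array medians were −0.015 and −0.25 after heat and −0.53 and −0.57 after celastrol. For ribosomal proteins, 24 of 76 large-subunit genes (31.6%) and 18 of 53 small-subunit genes (34.0%) had non-overlapping arrays upward, beside 18.1% of all genes. Their median differences were 0.47 and 0.62. With 1 array left out, these medians ran from 0.12 without celastrol replicate 1 to 0.84 without celastrol replicate 2 for the large subunit and from 0.17 without celastrol replicate 1 to 0.998 without celastrol replicate 2 for the small one. At an unadjusted limma p under 0.05 there were 8 large-subunit and 6 small-subunit genes, again smaller shares than that of all genes. The small-subunit medians by array were −1.99 and −1.44 after heat and −0.60 and −1.53 after celastrol, and the large-subunit medians −1.62 and −1.44 and −0.68 and −1.45. For both subunits celastrol replicate 2 lay within the range of the heat shock arrays. The largest-differing ribosomal protein gene, RPL10, was at −2.55 and −1.75 after heat and −0.37 and −0.68 after celastrol (1.63, limma adjusted p = 0.132). Near-identical ribosomal protein gene copies can share probe signal.

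The remaining lists also held 0 called members. By limma, from 1 gene (RNA polymerase I and III, reference genes) to 10 (mating genes) in each had an unadjusted p under 0.05, beside 741 of all 5403. Median differences were 0.20 for 23 citric acid cycle genes, 0.031 for 33 respiratory genes, −0.45 for 19 glycolysis and fermentation genes and −0.17 for 21 trehalose and glycogen genes. ACO1, for aconitase, and IDH2, for a subunit of isocitrate dehydrogenase, had differences of −1.47 ± 0.22 and −1.68 ± 0.31 (limma adjusted p = 0.057 and 0.0974), with heat shock arrays at 1.70 and 1.70 for ACO1 and 1.81 and 2.43 for IDH2. Iron regulon genes had a median of −0.24 over 25, ER folding genes −0.28 over 25, lipid synthesis genes −0.17 over 32 and RNA polymerase I and III genes −0.19 over 21. Histone genes had −0.34 over 9, G1 and S phase genes 0.13 over 32, mating genes 0.11 over 31 and reference genes 0.11 over 12. Each of these medians moved by over 1.5 times, or changed sign, when some 1 array was left out. Without heat shock replicate 2 the trehalose and glycogen median turned to 0.058 and that of reference genes to −0.091, and without heat shock replicate 1 the lipid median turned to 0.15. With 1 array left out, the medians ran from 0.0027 to 0.24 for citric acid cycle genes, from 0.029 to 0.12 for respiratory genes and from −0.88 to −0.12 for glycolysis and fermentation genes. They ran from −0.57 to −0.05 for iron regulon genes, from −0.35 to −0.10 for ER folding genes and from −0.59 to −0.032 for histone genes. For RNA polymerase I and III, G1 and S phase, and mating genes they ran from −0.31 to −0.13, from 0.065 to 0.34 and from 0.10 to 0.30. The lipid median also turned, to 0.016 with arrays scaled to equal spread and 0.0075 with quantile normalization. The lipid gene ERG11, for lanosterol demethylase, had a difference of −2.22 with heat shock arrays far apart at 2.07 and −0.018 (limma adjusted p = 0.277).

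A large difference was not always called. Of 89 genes with a difference of 2 log2 units or more in size, 55 were called and 34 were not. Besides GND2, HSP30, ALD3 and YGP1, the largest that were not called included YHB1, for the nitric oxide detoxifying flavohemoglobin, at −1.36 and −2.39 after heat shock against 1.28 and 0.97 after celastrol. The difference for YHB1 was 2.996 ± 0.40, at a limma adjusted p of 0.0514. HSP30, YHB1, TPO3, VTC3, PHO12, GRE3, GPX1 and ZAP1 were picked after the values were seen.

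The thioredoxin reductase gene TRR1, MSN4, KAR2 and ACT1 had smaller differences, none of them called. TRR1 was at 0.086 and −0.19 after heat and 0.46 and 0.99 after celastrol (0.78 ± 0.28, limma adjusted p = 0.331). MSN4, the gene of the stress regulator, differed by 0.38 with a 95% interval of −0.34 to 1.09, and KAR2, for the Hsp70 of the endoplasmic reticulum, by −0.90 with an interval of −1.87 to 0.078. The actin gene ACT1 differed by 0.57, with an interval of 0.0013 to 1.13. RPN4, the gene of the proteasome activator, was left out of the test because heat shock replicate 1 held an exact 0 for it.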

How the data were processed

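The deposited values were log ratios of treated (Cy5) over control (Cy3) RNA, 1 value a probe and array. Per the labels, the authors averaged duplicate spots on each chip and normalised to the chip's median signal. That the deposited values are log2 was read from the values of heat shock replicate 1 and assumed for the other 3 arrays. The sources used here do not give the array software, background correction or spot filters.

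Of 6415 probes, 5619 had 1 gene, 76 several and 720 none listed. All 5619 matched RefSeq, and probes were averaged per gene. Exact zeros were taken as missing. limma 3.58.1 in R 4.3.3 fitted 1 mean per treatment to the 4 arrays, with 2 residual and 3.12 prior degrees of freedom. Benjamini-Hochberg adjustment ran over 5403 genes. Errors are limma SEs and intervals are 95%. The script was tested on simulated data.

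Samples were grouped by their labels. The contrast, gene lists and tests were chosen with earlier results of these data known. Named genes were the 14 highest and 14 lowest called genes, a fixed panel, up to 6 members of each of 31 lists with the largest differences, and called genes of opposite direction. Other called genes were named after their values were seen, so that each is accounted for. Alternatives changed scaling, missing values, probes, variance model, threshold, pairing and arrays. The main fit did not pair arrays by replicate number, since the series text calls the experiments independent.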

Additional observations from a re-analysis of the deposited data

How the results depend on the processing

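The number of calls depended on the scaling, the threshold and the arrays. All 60 called differences kept their sign under every alternative that tested them, but several alternatives could not turn it. The arrays of these genes did not overlap, so leaving 1 out keeps the sign. Variance models, blocks and the threshold leave the difference itself unchanged. Centring moves each difference by 0.111, where the smallest called was 1.65. Scaling arrays to equal median absolute deviation gave 122 calls (69 higher, 53 lower), which held 52 of the 60. Quantile normalization gave 164 (87 higher, 77 lower), which held all 60. Centring gave 83 calls, with 47 higher and 36 lower, which held 59 of the 60. The test against a 1.5-fold difference gave 31 calls (16 higher, 15 lower). In 30 genes, 16 higher and 14 lower, the call held under centring, both scalings, array weights and the 1.5-fold test. Leaving out 1 array gave from 0 to 575 calls, 0 to 222 higher and 0 to 353 lower, and a lone array is then assumed to vary like the other treatment's pair. The replicate block gave 0 calls in limma, higher or lower, with 524 genes at an unadjusted p under 0.05 against 741 without it. Deviations of replicate 1 correlated at r = −0.310 across genes between treatments. With 2 arrays a treatment, this value cannot show whether arrays of the same number belong together. The crossed pairing, added after seeing the data, gave 50 calls (24 higher, 26 lower). The remaining alternatives gave 46 to 80 calls. The difference of SSA4 turned from −0.11 to 6.94e-05 with centring and 0.13 with scaling, and ran from −0.63 to 0.41 with 1 array left out. That of HSP42, −0.20, ran from −0.58 to 0.18 with 1 array left out. The cause of these changes was not tested. The search for promoter letters was not run. Signal over background is unknown, so which dim probes limit a difference was not analysed here.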
